A study of Homo sapiens with 6 samples.

Results

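The genes described here are 10 genes of the contractile actin cytoskeleton of the kind controlled by serum response factor (SRF): ACTB, ACTG1, TAGLN, TAGLN2, TPM1, TPM2, TPM4, MYL9, CSRP1 and CALD1. They were chosen by symbol, all 10 were found among the 27980 symbols of the count tables, and all 10 passed the filter on low counts. RNA was sequenced from 3 shTRIP6 libraries and 3 shControl libraries. In shTRIP6 the cells carried a lentiviral hairpin against TRIP6, which encodes a LIM-domain adaptor of focal adhesions, and in shControl they carried a scrambled hairpin. All 6 came from the poorly differentiated colon carcinoma line RKO and were kept under 5 µg/ml puromycin for 2 to 3 weeks, from 36 h after infection. The labels give the controls the genotype WT, although they too were infected and selected. The labels used here give neither the hairpin sequence nor whether the selected cells were pools or single clones.

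Libraries held 31096598 to 32089298 counts in shTRIP6 and 29605764 to 30949334 counts in shControl. TRIP6 stood at 19.8, 19.4 and 19.5 CPM (counts scaled to library size) in shTRIP6 and at 73.9, 86.5 and 80.6 CPM in shControl. Its mean was 19.5 ± 0.203 CPM in shTRIP6, 24.3% of the 80.3 ± 6.27 CPM in shControl (SD, n = 3 each, edgeR adjusted p = 1.25e-14). Of 7 epithelial and colonic markers, summing to 2533 to 2731 CPM in shTRIP6 and 2516 to 2803 CPM in shControl, 3 could be tested, with a median log2 fold change of 0.02. The keratin KRT19 rose (log2 fold change 1.87, edgeR adjusted p = 7.84e-12) and the abundant KRT8 and KRT18 were not called (KRT8 was called lower without shControl replicate 1, log2 fold change -0.11), while EPCAM and VIL1 had no count in any library, and CDH1 and CDX2 had at most 0.302 CPM in any library. With no count, a gene could still stand at up to 0.0941 to 0.101 CPM, which is the level of 3 counts and covers counting error only. Any difference between the stocks of cells behind the groups cannot be told apart from the hairpins. The labels call the replicates biological without naming separate cultures. The p-values below therefore cover the spread between these libraries, which may be technical.

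Actin filaments carry tropomyosin along their length, are bundled or stabilised by transgelin and CSRP1, and are pulled by myosin II, whose light chains include the product of MYL9. SRF binds DNA at a short element called the CArG box, and its cofactors MRTF-A and MRTF-B are held in the cytoplasm by unpolymerised actin and released when actin assembles. Genes of the actin cytoskeleton are well-known targets of SRF with the MRTFs, while immediate early genes such as FOS and EGR1 are reached through SRF with the ELK factors. Zyxin-family proteins such as TRIP6 sit where actin stress fibres meet the adhesion sites.

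Of the 7 members with a RefSeq promoter window (build GRCh38.p14), only ACTG1 and TPM4 held an exact CArG box, so their upstream sequences are shown. Their counts, taken per gene, went in opposite directions. Upstream sequence of ACTB, TAGLN and MYL9 was not used here. A window ran from 250 bases before to 50 bases after an annotated start, and the 7 members had 17 windows, 2 of them with a box. Capitals mark the box, and both stretches read 5′ to 3′ on the gene's strand and end at the base before the start. The ACTG1 stretch is chr17:81512800-81513049 on the minus strand, and the TPM4 stretch is chr19:16067288-16067537 on the plus strand. The TPM4 stretch belongs to window 1 of that gene. Windows 2 and 3 of TPM4, downstream at chr19:16076245-16076544 and chr19:16076766-16077065, held no exact box. Transcripts from the different starts of TPM4 were not separated in the counts.
ACTG1: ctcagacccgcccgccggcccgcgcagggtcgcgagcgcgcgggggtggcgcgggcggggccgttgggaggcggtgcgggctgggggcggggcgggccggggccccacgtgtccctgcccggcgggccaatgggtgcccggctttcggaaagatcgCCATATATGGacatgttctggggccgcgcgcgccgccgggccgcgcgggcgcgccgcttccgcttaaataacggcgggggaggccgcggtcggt
TPM4: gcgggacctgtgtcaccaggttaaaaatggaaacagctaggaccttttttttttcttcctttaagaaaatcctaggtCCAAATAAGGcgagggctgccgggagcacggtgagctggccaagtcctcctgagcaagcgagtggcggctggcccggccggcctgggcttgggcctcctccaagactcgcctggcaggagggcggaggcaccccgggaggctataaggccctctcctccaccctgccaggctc
The box of ACTG1 begins at base -94 and that of TPM4 at base -173 from the start. The pattern is palindromic, so a reading of either strand finds it. Among all promoter windows of this length 1.29% held an exact box. Of 167 tested genes with a box in any window, 31.7% were called higher and 34.1% lower in shTRIP6, against 29.3% and 32.7% of the 11266 tested genes with a window. Calls are defined below, and a match describes letters only, without a claim of binding.

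All 10 genes differed between the groups, mostly by small amounts. Calls rest on the quasi-likelihood test of edgeR at an adjusted p under 0.05, with 15473 genes tested and adjusted together by Benjamini-Hochberg. By this test 7 members were called higher and 3 lower in shTRIP6. Across all tested genes 60.1% were called, 29% higher and 31.2% lower, so most genes of these libraries pass this test. At a mean of 100 CPM or more, where 7 of the 10 members stood, 73.1% of genes were called, 41.6% higher and 31.5% lower, and of those 7 members 5 were higher and 2 lower. The groups did not overlap for any of the 10 members, with 7 higher and 3 lower, against 65.3% of all tested genes, 31.8% higher and 33.5% lower. By size, 2 of 10 were called with at least a 1.5-fold difference, against 26.5% of tested genes, and 0 of 10 reached 2-fold, against 14.9%. The median log2 fold change, shTRIP6 over shControl, was 0.35 for the members and 0.00 for all tested genes. Adding up the members gave 11433 ± 293 CPM in shTRIP6 and 10472 ± 210.2 CPM in shControl, a rise of 9.18%.

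**Figure D1:**
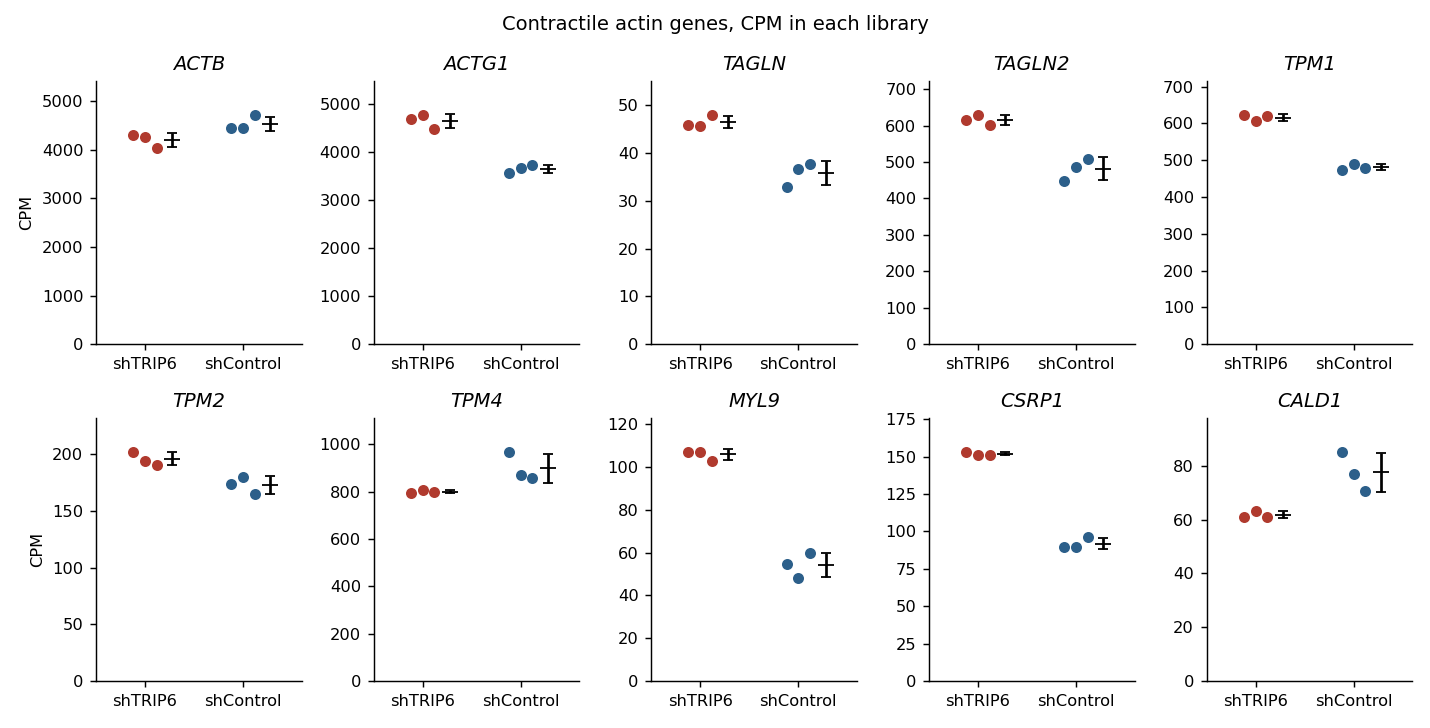
Level of each gene in CPM (vertical axes from 0) in the 3 shTRIP6 libraries (red, left) and the 3 shControl libraries (blue, right); points are libraries, and black bars are the mean ± SD. MYL9 and CSRP1 show the widest gaps, while ACTB, TPM2 and TPM4 differ by under 15% of the shControl mean.

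The 2 cytoplasmic actins, which form the bulk of the filaments of non-muscle cells, moved apart. ACTG1 encodes gamma-actin and lies on chromosome 17, minus strand, bases 81509971 to 81523847 (GRCh38, protein-coding, as for all members). It stood at 4676, 4759 and 4477 CPM in shTRIP6, against 3559, 3655 and 3726 CPM in shControl. All shTRIP6 libraries lay above all shControl libraries. The log2 fold change was 0.35 ± 0.04 (SE, edgeR adjusted p = 1.13e-07), a 1.27-fold rise. ACTB encodes beta-actin, a common loading reference, and lies on chromosome 7, minus strand, bases 5527147 to 5563784. It stood at 4304, 4263 and 4044 CPM in shTRIP6, against 4441, 4446 and 4709 CPM in shControl. The groups did not overlap, but the gap between the nearest libraries was narrow. Its log2 fold change was -0.11 ± 0.04 (edgeR adjusted p = 0.0169). The call of ACTB was lost under upper-quartile scaling (adjusted p = 0.166), without shTRIP6 replicate 3 (0.125) and without shControl replicate 3 (0.0849). Over 14 alternatives its adjusted p ran between 0.00112 and 0.166.

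By mean level ACTB ranked 6 and ACTG1 ranked 7 among the 15473 tested genes. Counts of ACTG1 over counts of ACTB were 1.09, 1.12 and 1.11 in shTRIP6, against 0.801, 0.822 and 0.791 in shControl. ACTG1 thus had more counts than ACTB in every shTRIP6 library and fewer in every shControl library. The actins have many processed copies in the genome. Of these the table listed ACTG1P17, ACTG1P20 and ACTG1P4, and the actin-containing POTE genes, none above 75 counts in a library, which was at most 0.0659% of the counts of the actin gene. The sources used here do not say how reads shared with such copies were counted.

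The tropomyosins, rod proteins that line the filament and govern which proteins reach it, also divided. TPM1 lies on chromosome 15, plus strand, bases 63042632 to 63071915. It stood at 622, 606 and 619 CPM in shTRIP6, against 474, 489.7 and 479 CPM in shControl. The groups were well apart, with a log2 fold change of 0.36 ± 0.04 (edgeR adjusted p = 3.13e-07). TPM2 is found on chromosome 9 (35681992 to 35690121, minus strand). It stood at 202, 194 and 191 CPM in shTRIP6, against 174, 180.3 and 165 CPM in shControl. Its rise was smaller, at 0.18 ± 0.05 on the log2 scale (edgeR adjusted p = 0.00412).

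TPM4 lies on chromosome 19, plus strand, bases 16067021 to 16103005. The box-bearing stretch shown above lies upstream of 1 of its annotated starts. TPM4 stood at 796, 806 and 801 CPM in shTRIP6, against 968, 869 and 859.8 CPM in shControl. The shTRIP6 libraries were nearly equal and all lower, and shControl replicate 1 lay well above the other control libraries. The log2 fold change of TPM4 was -0.17 ± 0.05 (edgeR adjusted p = 0.00363), and without shControl replicate 1 it was -0.11 (adjusted p = 0.0046). TPM3, the remaining tropomyosin gene and no member, did not pass the test, with 954 ± 18.1 CPM in shTRIP6 and 897 ± 31.1 CPM in shControl (edgeR adjusted p = 0.0617). The 3 shTRIP6 libraries of TPM3 nonetheless lay above the shControl libraries, and it was called higher in 5 of 14 alternatives, among them without shTRIP6 replicate 3 and without shControl replicate 1 (adjusted p 0.00646 to 0.235 over all 14). Tropomyosin genes are heavily spliced, with 34 annotated transcripts for TPM1, 12 for TPM2 and 24 for TPM4 in GENCODE 29. The counts are per gene, so muscle-type and cytoplasmic isoforms were not separated. Exons of TPM1 overlap those of TPM1-AS, which had at most 3.63% of the counts of TPM1 and was not called (14.8 CPM in shTRIP6, 16.9 CPM in shControl, edgeR adjusted p = 0.0836).

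**Figure D2:**
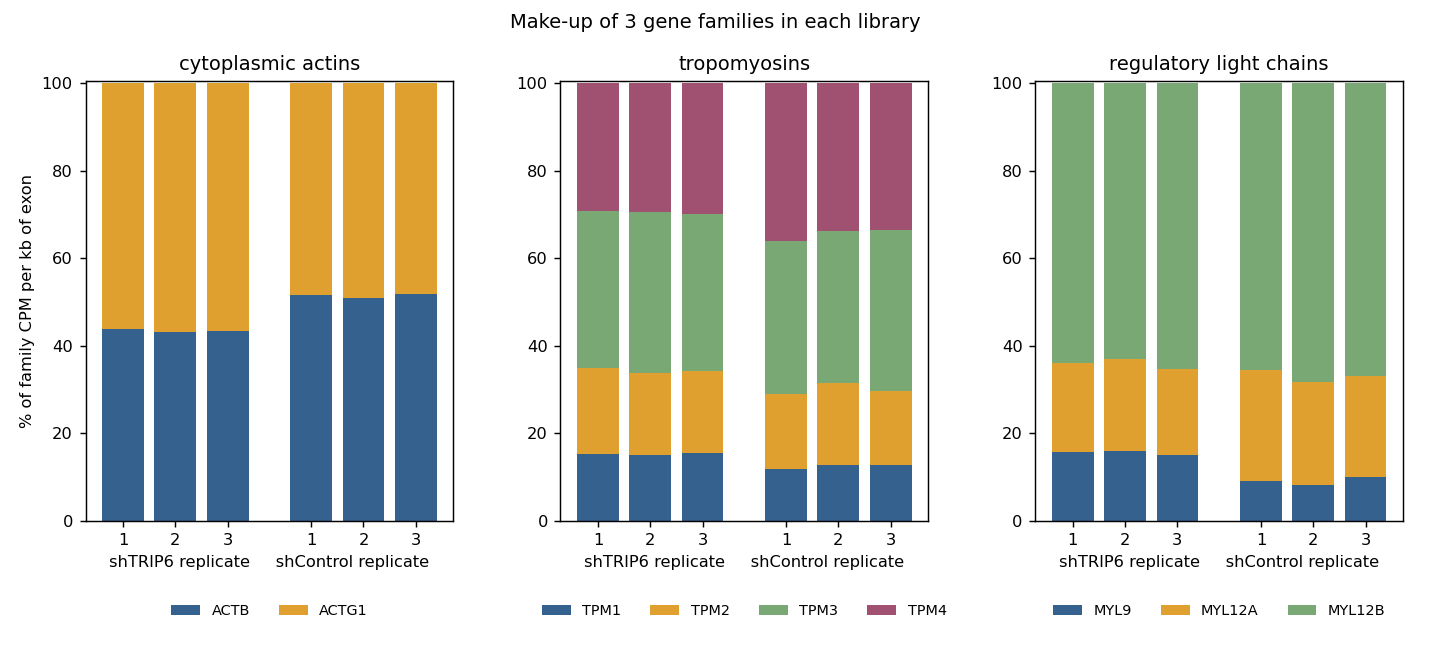
Share of each gene in the summed CPM per kb of exon of its family (vertical axis, %), for cytoplasmic actins, tropomyosins and myosin regulatory light chains, with shTRIP6 replicates 1 to 3 on the left and shControl replicates 1 to 3 on the right of each panel. The ACTG1 share was 56.5% in shTRIP6 and 48.6% in shControl, and the MYL9 share 15.4% in shTRIP6 and 9.01% in shControl.

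Per kb of exon, the shares of the actins and of TPM1, TPM2 and TPM4 did not overlap between the groups. ACTG1 made up 56.5 ± 0.342% of the actin pair in shTRIP6 and 48.6 ± 0.485% in shControl. TPM4 made up 29.5 ± 0.324% of the 4 tropomyosins in shTRIP6 and 34.5 ± 1.3% in shControl. TPM1 made up 15.2 ± 0.293% in shTRIP6 and 12.4 ± 0.516% in shControl, and TPM2 19.1 ± 0.437% in shTRIP6 and 17.7 ± 0.889% in shControl. For TPM2 the shift of 1.47 points was no larger than the spread of the shControl libraries, and its nearest libraries stood at 18.9% in shTRIP6 and 18.7% in shControl. The share of TPM3 overlapped between the groups, at 36.2 ± 0.448% in shTRIP6 and 35.4 ± 1.16% in shControl. With 3 libraries against 3, an exact two-sided permutation test cannot go below p = 0.1, so these shares are given by their values alone.

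The transgelins, calponin-related proteins that bundle actin, rose together. TAGLN, also called SM22 and a classical marker of smooth muscle and of MRTF activity, lies on chromosome 11, plus strand, bases 117199321 to 117204782. It stood at 45.8, 45.7 and 47.9 CPM in shTRIP6, against 33, 36.6 and 37.7 CPM in shControl. All shTRIP6 libraries were higher, with a log2 fold change of 0.38 ± 0.07 (edgeR adjusted p = 1.25e-04). Of its exon bases 11.4% overlap PCSK7 on the other strand, which was also called higher (60.1 CPM in shTRIP6, 53 CPM in shControl, 0.18 on the log2 scale, edgeR adjusted p = 0.0247). Whether counting used the strand is not stated in the labels, so reads of overlapping genes may not be separated.

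TAGLN2, the widely expressed relative, lies on chromosome 1, minus strand, bases 159918107 to 159925732. It stood at 615, 628 and 602 CPM in shTRIP6, against 447, 487 and 509 CPM in shControl. The groups were apart, and the log2 fold change was 0.35 ± 0.05 (edgeR adjusted p = 3.20e-06). TAGLN2 supplied nearly all transgelin transcripts in both groups, 95.4 ± 0.203% per kb of exon in shTRIP6 and 95.5 ± 0.0356% in shControl. The 2 genes thus kept their proportion within the spread of the replicates.

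MYL9 and CSRP1 rose most. MYL9 encodes a regulatory light chain of smooth muscle and non-muscle myosin II, whose phosphorylation switches contraction on, and lies on chromosome 20, plus strand, bases 36541484 to 36551447. It stood at 107, 107 and 103 CPM in shTRIP6, against 54.8, 48.3 and 59.6 CPM in shControl. Every shTRIP6 library lay far above every shControl library. The log2 fold change was 0.96 ± 0.07 (edgeR adjusted p = 4.12e-10), a 1.95-fold rise, and 5.14% of all tested genes rose by more. MYL12A and MYL12B, the other common regulatory light chains, were at log2 fold changes of -0.04 and 0.12. MYL12A was not called (edgeR adjusted p = 0.476). MYL12B was called higher (edgeR adjusted p = 0.0174), a call lost without shTRIP6 replicate 3 (0.0542). Of these 3 light chain genes MYL9 made up 15.4 ± 0.462% per kb of exon in shTRIP6 and 9.01 ± 0.886% in shControl.

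CSRP1, a LIM-only protein that binds actin bundles and alpha-actinin, lies on chromosome 1, minus strand, bases 201483530 to 201509456. It stood at 153, 151 and 151 CPM in shTRIP6, against 89.2, 89.8 and 96.1 CPM in shControl. The spread within shTRIP6 was very narrow and the groups were far apart. The log2 fold change was 0.73 ± 0.05 (edgeR adjusted p = 3.76e-10), a 1.66-fold rise, and 8.79% of all tested genes rose by more.

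CALD1 went the other way. It encodes caldesmon, which binds actin, tropomyosin and myosin and restrains the motor, and it lies on chromosome 7, plus strand, bases 134744252 to 134970728. It stood at 61, 63.3 and 61.1 CPM in shTRIP6, against 85.2, 77.2 and 70.8 CPM in shControl. All shTRIP6 libraries were lower, and the control libraries were more widely spread than the shTRIP6 ones. The log2 fold change was -0.33 ± 0.07 (edgeR adjusted p = 2.33e-04), which left 79.5% of the control level. Smooth muscle and non-muscle caldesmon come from this gene by splicing and were not separated.

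**Figure D3:**
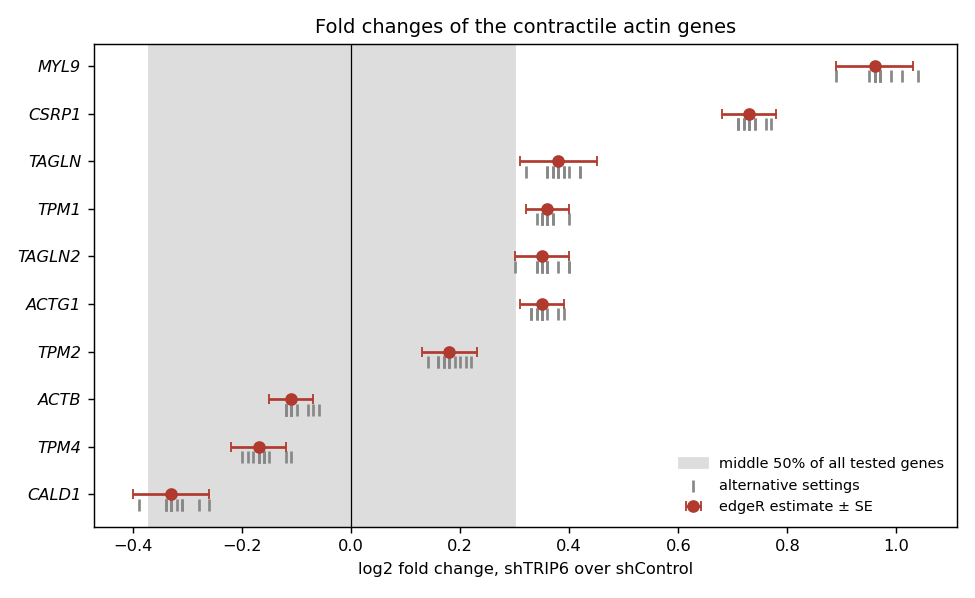
Log2 fold change of shTRIP6 over shControl for each gene (red point, bar = SE), the estimates under 14 alternative settings (grey ticks), and the range of the middle 50% of all 15473 tested genes (grey band, -0.37 to 0.30). MYL9 and CSRP1 lie furthest to the right, and TPM2, ACTB, TPM4 and CALD1 lie inside the band.

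Set side by side, the fold changes ran from -0.33 for CALD1 to 0.96 for MYL9. ACTG1, TAGLN2, TPM1 and TAGLN lay between 0.35 and 0.38, closer together than their standard errors of 0.04 to 0.07. The middle 50% of all tested genes ran from -0.37 to 0.30, so CALD1, TPM4, ACTB and TPM2 were called but were not large for these libraries. Replicates of the members agreed closely, with a coefficient of variation from 0.645% for TPM4 in shTRIP6 to 10.4% for MYL9 in shControl.

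By level per kb of exon the order was ACTG1, ACTB, TAGLN2, TPM4, TPM2, TPM1, MYL9, CSRP1, TAGLN and CALD1 in shTRIP6. In shControl ACTB stood above ACTG1 and TAGLN above CSRP1, with the other 6 in the same places. ACTG1 averaged 1549 ± 48.3 CPM per kb in shTRIP6 and 1218 ± 28.1 CPM per kb in shControl, and ACTB averaged 1195 ± 39.8 CPM per kb in shTRIP6 and 1288 ± 43.5 CPM per kb in shControl. At the low end CALD1 averaged 6.28 ± 0.13 CPM per kb in shTRIP6 and 7.9 ± 0.731 CPM per kb in shControl. The ranges of TAGLN, CSRP1 and CALD1 overlapped in shControl, so these neighbours are not ordered there, while no neighbours overlapped in shTRIP6. Exon length was taken over all annotated transcripts, from 2.49 kb for TAGLN2 to 12.88 kb for TPM1, which lowers the level of genes with many alternative exons.

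SRF and its cofactors did not move together. Of 6 tested genes of this list, 1 rose and 4 fell, with a median log2 fold change of -0.35. The share called was 83.3%, beside 60.1% of all tested genes, 29% higher and 31.2% lower. SRF stood at 103, 100.3 and 98 CPM in shTRIP6, against 72.3, 67.8 and 75 CPM in shControl, a log2 fold change of 0.49 ± 0.06 (edgeR adjusted p = 4.21e-07). The MRTF genes fell. MKL1, which encodes MRTF-A, stood at 22.4, 20.6 and 19.2 CPM in shTRIP6, against 42.5, 35.2 and 36.1 CPM in shControl (-0.87 ± 0.09 on the log2 scale, edgeR adjusted p = 9.55e-08). MKL2, which encodes MRTF-B, stood at 13.2, 13.9 and 12.7 CPM in shTRIP6, against 39.3, 33.4 and 34 CPM in shControl (-1.42 ± 0.09 on the log2 scale, edgeR adjusted p = 9.84e-11). ELK1 and ELK4 also fell, and ELK3 was not called (edgeR adjusted p = 0.102, and 0.00306 without shControl replicate 1, in a range of 0.00306 to 0.316). MYOCD, the muscle-specific cofactor, had too few counts to be tested under the main settings, with 6 in all of shTRIP6 and 33 in all of shControl. It was tested in 5 of 14 alternatives and called lower in 3 (edgeR adjusted p 0.0075 to 0.0952). Protein levels and the location of the MRTFs were not measured.

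Of other genes known as targets of SRF with the MRTFs, 16 were tested, and 8 rose, 4 fell and 4 were not called. The share called was thus 75%, beside 60.1% of all tested genes, 29% higher and 31.2% lower. At a mean of 100 CPM or more 73.1% of tested genes were called, 41.6% higher and 31.5% lower. The median log2 fold change of the list was 0.21, beside 0.00 for all tested genes. MYH9, the heavy chain of non-muscle myosin IIA, stood at 1062, 1035 and 1017 CPM in shTRIP6, against 672, 667 and 664 CPM in shControl (0.64 ± 0.04 on the log2 scale, edgeR adjusted p = 4.91e-11). FHL2, a LIM-only cofactor, rose by 0.59 ± 0.07 on the log2 scale (edgeR adjusted p = 1.64e-06). ITGA5, a subunit of the fibronectin receptor, fell and stood at 179 ± 6.49 CPM in shTRIP6 and 392 ± 19.8 CPM in shControl (-1.13 on the log2 scale, edgeR adjusted p = 3.32e-13). PDLIM5, a stress-fibre adaptor, fell by 0.60 on the log2 scale (edgeR adjusted p = 5.75e-08). The list shares genes with others named here, among them MYH9, ACTA2, TPM3 and SRF. Of the immediate early targets, 1 of 6 tested rose and 2 fell, with MCL1, a survival factor, at 0.27, EGR1 at -0.72 and IER2 at -0.32 on the log2 scale. The call of EGR1 (edgeR adjusted p = 0.00801) was lost without shTRIP6 replicate 1 (0.0517) and without shControl replicate 1 (log2 fold change -0.43, adjusted p = 0.0569). Over its alternatives the adjusted p of EGR1 ran between 7.42e-04 and 0.0569.

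**Figure D4:**
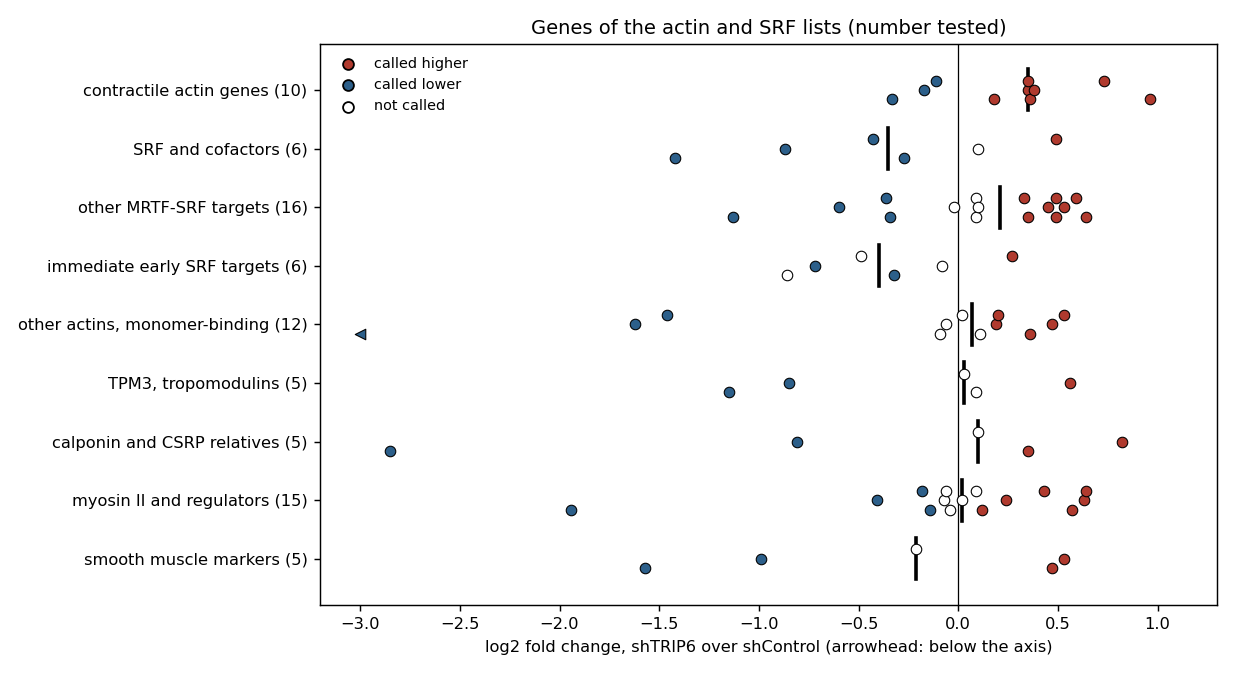
Log2 fold change of shTRIP6 over shControl for every tested gene of each list (points; red called higher, blue called lower, white not called), with the list's median as a black bar and the number tested in brackets. The arrowhead marks ACTBL2, which lies below the axis at -6.14 and rests on 2 counts in the shTRIP6 libraries. The 10 contractile actin genes have a median of 0.35, and the SRF and cofactor list a median of -0.35.

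Among non-muscle myosin II and the regulators of its light chain, 6 of 15 tested genes rose and 4 fell. The share called was 66.7%, beside 60.1% of all tested genes, 29% higher and 31.2% lower. The median log2 fold change of the list was 0.02. Beside MYH9, the light chain kinase gene MYLK rose, at 187 ± 4.75 CPM in shTRIP6 and 121 ± 1.89 CPM in shControl (0.63 on the log2 scale, edgeR adjusted p = 1.08e-09). ROCK1, a kinase that keeps the light chain phosphorylated, fell by 0.41 on the log2 scale (edgeR adjusted p = 1.22e-04). It was not the largest fall of the list, which is not reported here. The count of 4 was 2 without shTRIP6 replicate 1, without shTRIP6 replicate 2 and under upper-quartile scaling, where PPP1CB (-0.14 on the log2 scale) and PPP1R12A (-0.18), subunits of the light chain phosphatase, lost their calls. Exons of MYLK overlap those of MYLK-AS1 and MYLK-AS2.

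Among other actins and proteins that bind monomers or sever filaments, 5 of 12 tested genes rose and 3 fell. Calls thus covered 66.7% of the list, beside 60.1% of all tested genes, 29% higher and 31.2% lower. The median log2 fold change of the list was 0.07. TMSB4X, thymosin beta 4, which sequesters actin monomers, stood at 339, 331 and 343 CPM in shTRIP6, against 845, 958 and 974 CPM in shControl. All shTRIP6 libraries were far below the controls (log2 fold change -1.46 ± 0.05, edgeR adjusted p = 1.05e-14). TMSB10, thymosin beta 10, went the other way, with 1157 ± 55.3 CPM in shTRIP6 and 1013 ± 118 CPM in shControl. Its call (0.19 on the log2 scale, edgeR adjusted p = 0.0122) came with overlapping groups and was lost without shTRIP6 replicate 1 (0.0548). GSN, the severing protein gelsolin, fell to 16.1 ± 1.2 CPM in shTRIP6, against 49.7 ± 3.21 CPM in shControl (-1.62 on the log2 scale, edgeR adjusted p = 3.24e-12). ACTA2, smooth muscle alpha-actin, and CAP2, a cyclase-associated protein that recycles monomers, rose by 0.53 and 0.47 on the log2 scale. Exons of ACTA2 overlap those of FAS and ACTA2-AS1, and those of GSN overlap GSN-AS1.

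Of the pointed-end capping tropomodulins, their relative LMOD3 and TPM3, 1 of 5 tested genes rose (2 where TPM3 was called) and 2 fell. Calls thus covered 60% of this list, beside 60.1% of all tested genes, 29% higher and 31.2% lower. The median log2 fold change of 0.03 was that of LMOD3, which had 43 counts in all of shTRIP6 and 41 in all of shControl. TMOD3, the widely expressed form, stood at 71.9 ± 2.15 CPM in shTRIP6 and 129.8 ± 4.22 CPM in shControl (-0.85 on the log2 scale, edgeR adjusted p = 6.57e-11). TMOD1 and TMOD2 were at -1.15 and 0.56 on the log2 scale, and exons of TMOD1 overlap those of TSTD2. Of the relatives of transgelin, calponin and CSRP1, 2 of 5 tested genes rose and 2 fell (80% called), with a median of 0.10. CNN3, acidic calponin, stood at 183 ± 2.45 CPM in shTRIP6 and 104 ± 8.15 CPM in shControl (0.82 on the log2 scale, edgeR adjusted p = 2.67e-10). The small LIM protein genes CRIP2 and CRIP1 were at -2.85 and -0.81 on the log2 scale. CSRP2 rose by 0.35 (edgeR adjusted p = 0.0463), a call lost in 8 of 14 alternatives, over which its adjusted p ran between 0.0218 and 0.161.

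Markers of cells that are rich in contractile genes were measured beside these changes. Of 11 smooth muscle and myofibroblast markers, 5 could be tested, and 2 rose and 2 fell, with a median log2 fold change of -0.21. Calls thus covered 80% of those tested, beside 60.1% of all tested genes, 29% higher and 31.2% lower. CNN1 and KCNMB1 had no count in any library, DES had none in shTRIP6 and 5 in all of shControl, and ACTG2 had 3 counts in shTRIP6 and 2 in shControl. ACTA2 and SMTN, a smoothelin gene that many cells express, rose by 0.53 and 0.47 on the log2 scale, and SYNM, an intermediate filament gene, fell by 0.99. The other fall, SYNPO2, rested on 15 counts in shTRIP6 and 44 in shControl (edgeR adjusted p = 0.035), and its call was kept in 6 of 14 alternatives and lost without shTRIP6 replicate 1 or 3 and without shControl replicate 1 or 2 (adjusted p 0.0231 to 0.162 over the 13 that tested it). The summed level of the list was 222 to 237 CPM in shTRIP6 and 195 to 202 CPM in shControl, most of it from SMTN. Of 9 fibroblast markers 8 were tested, and 2 rose and 4 fell (75% called), with a median log2 fold change of -0.83. Their summed level was 159.9 to 180.3 CPM in shTRIP6 and 114 to 127 CPM in shControl. Most of it came from THY1, with a mean of 153 CPM in shTRIP6 and 89.3 CPM in shControl. THY1 and PDGFRB were at 0.78 and 1.02 and FAP and COL3A1 at -5.49 and -3.07 on the log2 scale. The 6 leukocyte and endothelial markers summed to 234 to 243 CPM in shTRIP6 and 188 to 238 CPM in shControl, nearly all from the lysosomal gene CD68, and PTPRC, CD3E and PECAM1 had no count in shTRIP6. Of the 2 tested there, CD68 was called higher, with overlapping groups, and PECAM1 lower. Fewer cells of a type and less RNA per cell cannot be told apart in bulk RNA, and the part of these markers in the values of the members was not tested.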

How the data were processed

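RNA from 6 libraries of a cell line was measured by sequencing. The authors deposited unnormalised whole-number counts by gene symbol for each library, summing to 29605764 to 32089298. TopHat2, edgeR, limma and hg38 are named, without role, in the submitters' processing notes. No source used here names the counting tool or says whether it used the strand. Group and replicate of each library came from the labels.

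Counts were scaled by TMM (factors 0.9924 to 1.007), filtered with filterByExpr and compared in R 4.3.3 with edgeR 4.0.16 (quasi-likelihood test, group as the only term, Benjamini-Hochberg adjustment over all 15473 tested genes). CPM used the scaled library sizes. The SE was the log2 fold change divided by the square root of F. Replicates differed by more than sampling noise (chi-square per degree of freedom 3.05 to 11.7 within groups, 118 to 135 between them).

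Coordinates and exon lengths came from GENCODE 29 (GRCh38), which held 25772 of the 27980 symbols by name. Promoter sequence came from RefSeq. The members and lists were chosen with earlier results of these data known. All 10 members and TRIP6 were named, and from each other list up to 2 rises and 2 falls among called genes of mean 1 CPM or more. Some results are not reported here. Other genes, and the light chain shares, were named after their values were seen. Alternatives were RLE, upper-quartile or no scaling, no low-count filter, 1 CPM in 3 libraries, DESeq2 1.42.0, limma-voom (limma 3.58.1), a replicate block, and leaving out each library.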

Additional observations from a re-analysis of the deposited data

How the results depend on the processing

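All 10 members kept their direction under all 14 alternatives, and all but ACTB kept their call. Members called numbered 9 or 10, with 9 under upper-quartile scaling and when shTRIP6 replicate 3 or shControl replicate 3 was left out, each time through ACTB. Genes called among all tested ranged from 8460 to 9478 when a library was left out, beside 9307 with all. The difference in the share of TAGLN2 among the transgelins, -0.0708 percentage points, ranged from -0.153 to 0.0427 when a library was left out, and turned positive without shTRIP6 replicate 3. Same-numbered libraries did not deviate together (correlations of -0.0234, -0.0448 and -0.0258), and no shTRIP6 library correlated best with its own number. The numbers were therefore not taken to pair the libraries. With a replicate block 9079 genes and 10 members were called. Scaling moved the median of all genes by at most 0.048 on the log2 scale. Without a low-count filter 5 immediate early genes were called lower, beside 2 with it. CD68 was called higher (edgeR adjusted p = 0.0118), a call lost without shControl replicate 2 (0.0921).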

Other observations

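A pair of genes related to the members, named after their values were seen, were nearly absent from the shTRIP6 libraries. TPM3P9, a pseudogene of tropomyosin 3, had 2, 0 and 0 counts in shTRIP6, against 113, 153 and 145 counts in shControl. ACTBL2, a beta-actin-like gene, had 2 counts in all of shTRIP6 and 163 in all of shControl. Of the POTE genes that contain an actin sequence, POTEE, POTEI and POTEJ had at most 8 counts in a shTRIP6 library and at most 2 in a shControl library. Their counts nearly matched in every library (2, 1 and 1 for each in shControl), and whether they were the same reads was not tested.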
